A study of Mus musculus with 2 samples.

Results

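The loops described here were called by Hi-C in the mouse uterus in diestrus and had no partner in the estrus list. They were chosen by measured values. A diestrus loop entered when it held at least 50 contacts, when these were at least 3 times the contacts expected from its surroundings, and when no estrus loop of the same chromosome had both anchor starts within 20 kb of its own. Chromosome X was left out. Of 26240 diestrus loops, 12464 off chromosome X met the limits of contacts and strength and are called well-covered. Of these, 867 (6.96%) had no estrus counterpart and are called diestrus-only loops, 740 on chromosomes 1 to 6 and 8 to 19 and 127 on chromosome 7, which is reported apart. Contacts, strength and absence from the estrus list chose these loops, so they are given as descriptions and no test was run on them.

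Hi-C ligates and sequences pairs of DNA fragments that were neighbours in the folded genome. One library (n = 1) came from uteri of untreated CD-1 mice, an outbred stock, aged 2 months and in diestrus, and the other (n = 1) from untreated CD-1 uteri of the same age in estrus. Neither group carried a transgene, a deletion or an agent in its labels. The number of animals behind a library is not stated by the labels. The uterus was taken whole, so fewer cells of a type that holds a loop and a weaker loop in each cell cannot be told apart, and the lists hold no expression values with which the tissue could be checked. The comparison asks which chromatin loops are present in one stage of the cycle and not listed in the other.

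A chromatin loop is a pair of distant DNA segments, its anchors, that meet more often than their neighbours do. Many loops form when the ring complex cohesin extrudes DNA until it is held at sites bound by the zinc finger protein CTCF, and others join promoters and enhancers. In the estrous cycle the uterus passes from estrogen-driven growth around estrus to a progesterone phase in diestrus, and many of its genes follow these hormones.

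The promoters of 6 genes in anchors of diestrus-only loops are shown first, as the DNA at the loop ends whose genes come up below. Each run is the 250 bases upstream of a RefSeq start site in GRCm38.p6, the assembly named mm10, on the strand of the gene. Capitals mark CG dinucleotides, the pairs at which mammalian DNA is methylated. The Asrgl1 promoter (chr19:9135567-9135816, minus strand) lies in a gene with no estrus loop at either end. Those of Epha4 (chr1:77515089-77515338, minus strand), Flrt2 (chr12:95691976-95692225, plus strand) and Irs1 (chr1:82291440-82291689, minus strand) each lie in an anchor of 2 diestrus-only loops. Those of Klf13 (chr7:63938916-63939165, minus strand) and Dhcr7 (chr7:143822917-143823166, plus strand) are from chromosome 7.
Asrgl1: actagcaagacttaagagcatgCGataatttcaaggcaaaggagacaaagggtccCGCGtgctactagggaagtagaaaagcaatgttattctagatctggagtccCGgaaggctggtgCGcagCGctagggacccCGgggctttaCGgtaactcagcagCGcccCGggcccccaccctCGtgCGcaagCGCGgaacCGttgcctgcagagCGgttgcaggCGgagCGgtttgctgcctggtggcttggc
Epha4: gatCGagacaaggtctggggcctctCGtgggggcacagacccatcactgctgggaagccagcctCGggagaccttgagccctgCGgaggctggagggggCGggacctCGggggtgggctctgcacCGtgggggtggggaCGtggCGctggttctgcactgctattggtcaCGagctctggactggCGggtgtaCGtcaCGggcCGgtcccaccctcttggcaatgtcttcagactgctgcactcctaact
Flrt2: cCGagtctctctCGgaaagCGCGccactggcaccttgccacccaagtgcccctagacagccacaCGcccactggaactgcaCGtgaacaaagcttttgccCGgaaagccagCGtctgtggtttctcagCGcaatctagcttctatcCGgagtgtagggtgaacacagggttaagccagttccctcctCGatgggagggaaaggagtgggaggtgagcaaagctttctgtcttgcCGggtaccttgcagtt
Irs1: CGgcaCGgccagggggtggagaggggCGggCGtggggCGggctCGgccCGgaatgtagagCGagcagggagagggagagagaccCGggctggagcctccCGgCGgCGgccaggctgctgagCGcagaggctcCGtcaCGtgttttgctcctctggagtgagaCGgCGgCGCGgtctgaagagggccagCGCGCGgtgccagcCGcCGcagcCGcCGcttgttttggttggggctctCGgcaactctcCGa
Klf13: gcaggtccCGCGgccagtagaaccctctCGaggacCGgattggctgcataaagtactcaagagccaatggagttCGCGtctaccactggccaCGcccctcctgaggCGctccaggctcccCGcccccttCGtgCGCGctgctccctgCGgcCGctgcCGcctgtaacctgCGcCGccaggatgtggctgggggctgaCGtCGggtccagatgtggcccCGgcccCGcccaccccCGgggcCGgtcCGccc
Dhcr7: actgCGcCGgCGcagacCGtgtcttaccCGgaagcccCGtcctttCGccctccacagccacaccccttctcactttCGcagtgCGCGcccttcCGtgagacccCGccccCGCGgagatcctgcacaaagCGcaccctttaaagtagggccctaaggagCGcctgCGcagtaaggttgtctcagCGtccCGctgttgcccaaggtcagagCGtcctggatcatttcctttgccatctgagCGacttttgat
These 250 bases held 18 CG pairs at Asrgl1, 14 at Epha4, 12 at Flrt2 and 28 at Irs1. The median was 11 over the 367 upstream windows in anchors of diestrus-only loops outside chromosome 7. It was 10 at anchors of well-covered loops with an estrus counterpart there. Klf13 held 24 and Dhcr7 21, against a median of 12 over the 73 windows of diestrus-only loops on chromosome 7. The 6 printed promoters all lie above these medians of their sets and are not typical of them.

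In all, 13 microRNA genes with 22 mature RNAs lay in anchors of diestrus-only loops. Of these, 6 of the mature RNAs are shown because their genes lie in groups, one on chromosome 16 and one on chromosome 7, in anchors without a protein-coding gene end. They were chosen after the values were seen. Sequences are from RefSeq, and capitals mark the seed, bases 2 to 8, with which a microRNA pairs to its targets.
mmu-miR-99a-5p: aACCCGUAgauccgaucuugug
mmu-let-7c-5p: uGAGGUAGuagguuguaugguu
mmu-miR-125b-5p: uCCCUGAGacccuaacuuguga
mmu-miR-293-3p: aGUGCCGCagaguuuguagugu
mmu-miR-294-3p: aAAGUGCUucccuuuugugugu
mmu-miR-295-3p: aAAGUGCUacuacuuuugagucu
The first 3 come from a run of microRNA genes at chr16:77598940-77646339 on the plus strand, and the other 3 from chr7:3220356-3220837 on the plus strand. miR-294-3p and miR-295-3p share the seed AAGUGCU, while the other 4 seeds differ from it and from each other.

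The diestrus list held 4533525 contacts at its 26240 loops and the estrus list 4153485 at its 24131 loops. These sums cover called loops only, and total read depth was not analysed here. At 9749 well-covered diestrus loops outside chromosome 7 that estrus listed at the identical position, the median log2 ratio of contacts, estrus over diestrus, was -0.08, and that of strength was 0.00. The part of the lower contacts of the estrus library in the absences described below was not tested. With 1 library per stage there is no replicate check and no test between stages. Intervals are at 95%. Those of shares are exact Clopper-Pearson intervals, those of contacts are exact Poisson intervals, and those of medians come from order statistics. They cover counting error and take loops as independent, which loops that share an anchor are not, and none covers the spread between animals.

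Outside chromosome 7, 740 of 11719 well-covered diestrus loops (6.31%, interval 5.88 to 6.77) were absent from the estrus list. The same rule turned round found 499 of 11435 well-covered estrus loops (4.36%, 3.997 to 4.75) absent from the diestrus list. By chromosome the diestrus share ran from 4.64% on chromosome 4 (32 of 689 loops, 3.20 to 6.49) to 9.19% on chromosome 15 (51 of 555, 6.92 to 11.9), with 8.50% on chromosome 14 (6.22 to 11.3) next. The reverse share was lower on 16 of these 18 chromosomes and slightly higher on chromosomes 3 and 4. The intervals of the pair overlapped except on chromosomes 2 and 15. On chromosome 15 the reverse share was 3.23% (1.85 to 5.19), and on chromosome 2 it was 3.67% (2.59 to 5.05) against 6.69% (5.23 to 8.40).

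On chromosome 7, 127 of 745 well-covered diestrus loops (17.0%, 14.4 to 19.9) were absent from the estrus list. That interval lies above those of all 18 other chromosomes. With 1 library per stage, a difference between the stages and a difference between these 2 libraries cannot be told apart here. The reverse share on chromosome 7 was 3.63% (23 of 634, 2.31 to 5.39), within the range of the other chromosomes. Well-covered diestrus loops of chromosome 7 that estrus listed at the identical position had a median log2 ratio of contacts of -0.07 (540 pairs). Elsewhere it was -0.08. Only loops called in both lists entered these medians, so they cannot show how the absent loops changed.

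**Figure D1:**
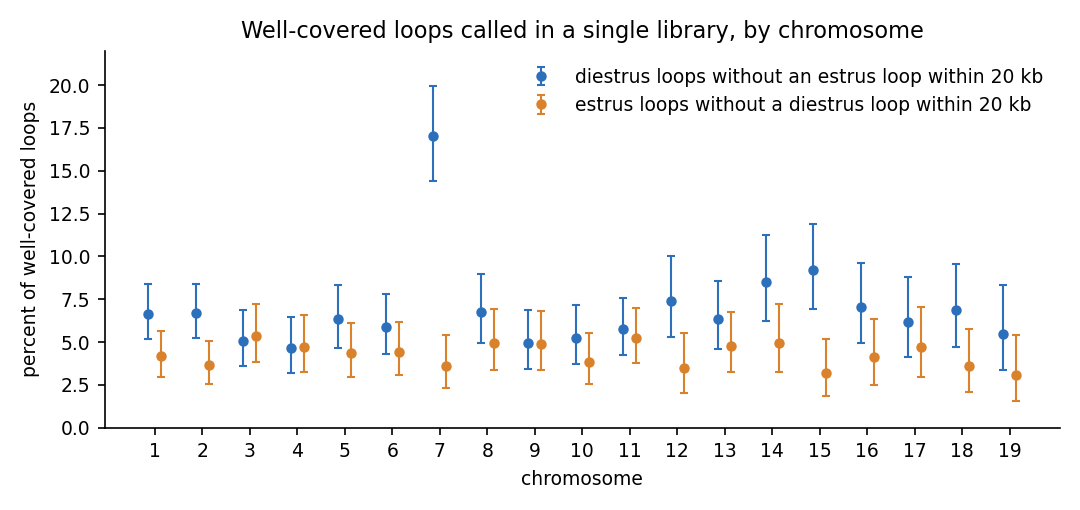
Percent of well-covered loops (vertical axis) on each chromosome (horizontal axis) that were called in a single library, blue for diestrus loops absent from estrus and orange for estrus loops absent from diestrus, with bars for 95% Clopper-Pearson intervals. Chromosome 7 stands at 17.0% in diestrus, while the other chromosomes lie between 4.64% and 9.19%.

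Most diestrus-only loops were weak for well-covered loops. Strength is the observed contacts over those expected from the donut, a ring of pixels around the loop. Outside chromosome 7 the diestrus-only loops had a median strength of 3.37 (3.35 to 3.43), against 4.58 in the 10979 well-covered loops with an estrus counterpart. Their median contacts were 79.5 (76 to 84) against 180. The strength over the highest of the 4 local expectations (donut, bottom-left, horizontal and vertical) had a median of 2.34 against 3.23. The caller had merged 1 enriched pixel into the loop at 448 of the 740 (60.5%), and at 11.7% of loops with a counterpart.

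Without the limits of contacts and strength, 25.1% of all diestrus loops off chromosomes 7 and X had no estrus counterpart. Among well-covered loops the share was 16.7% at 3 to 3.5 times the expected contacts and 0.652% at 7 times or more (13 of 1994 loops). With contacts it went from 19.4% at 50 to 74 contacts to 1.22% at 250 or more. On chromosome 7 it was 30.5% in the weakest class and still 13.9% (19 of 137, 8.56 to 20.8) in the strongest, while 0 of 121 estrus loops of that class were absent from diestrus, which allows a share of up to 3.003%. The absent loops of chromosome 7 had a median strength of 3.93 and 113 contacts, and 41 of 127 (32.3%) came from 1 pixel.

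**Figure D2:**
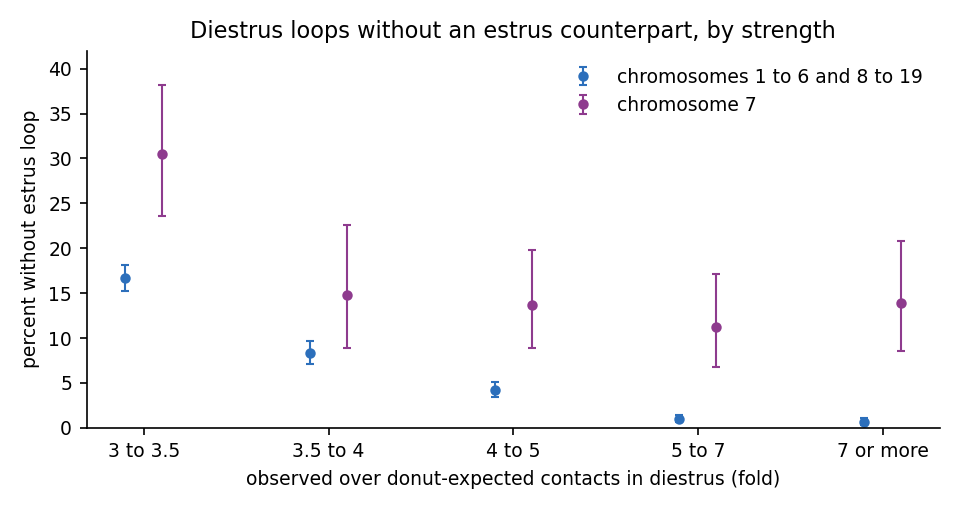
Percent of well-covered diestrus loops without an estrus counterpart (vertical axis) by class of strength in diestrus (horizontal axis, fold over the donut expectation), blue for chromosomes 1 to 6 and 8 to 19 and purple for chromosome 7, with bars for 95% intervals. The blue points go from 16.7% to 0.652%, and the purple ones from 30.5% to 13.9%.

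At the limits themselves, the weakest diestrus-only loop had a strength of 3.0011 and joined chr6:34770001-34780000, the 3' end of Cald1, to chr6:34870001-34880000 with 219 contacts. The strongest loop just outside had 2.9994 (chromosome 12, 68 contacts). There were 18 diestrus-only loops at 50 contacts, and 22 more loops would have entered at 49. Of well-covered loops, 221 had their nearest estrus loop at 20 kb and counted as found, and 153 had it at 30 kb and counted as absent.

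Many absent loops lay close to a loop that estrus did list. Outside chromosome 7 the nearest estrus loop, by the larger of the differences at the anchors, was 30 kb away for 140 of 740 loops, 40 to 50 kb for 152, 60 to 100 kb for 196 and 110 to 200 kb for 148. It was 210 to 500 kb away for 86, up to 1 Mb for 14 and farther for 4. Another diestrus loop with more contacts lay within 50 kb at both anchors for 239 of the 740 (32.3%, 28.9 to 35.8), and for 215 of them that loop was also in estrus. Among loops with a counterpart such a neighbour was found for 11.4%. Of the 47 diestrus-only loops with 250 or more contacts, 31 (66.0%) had one.

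The 12 diestrus-only loops with the most contacts outside chromosome 7 show this. The first, chr2:77900001-77910000 to chr2:78020001-78030000, starts in the splicing factor gene Cwc22 and held 955 contacts at 3.19 times the expectation. Estrus listed a loop of 4201 contacts 30 kb away. The loop between Chrac1 and Ago2, which encodes the slicer of RNA interference, held 503 contacts (460 to 549), and its estrus neighbour at 30 kb held 1163. A loop from Bphl and the tubulin gene Tubb2a held 544 contacts beside an estrus loop of 774. The loop at Gadd45g, a stress-response gene, held 354 contacts and lay 70 kb from an estrus loop of 792. For 9 of these 12 loops the nearest estrus loop was at 30 kb, and in 8 of the 12 it had more contacts than the diestrus-only loop.

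The other 501 diestrus-only loops outside chromosome 7 had no such neighbour. They had a median of 72 contacts (69 to 76) and a strength of 3.34, against 111 contacts (100 to 123) and 3.51 for those beside a loop with more contacts. Among well-covered diestrus loops without such a neighbour, 4.90% (4.49 to 5.33) were absent from estrus outside chromosome 7 and 15.9% (13.2 to 18.9) on it. The reverse shares were 3.21% (2.87 to 3.57) and 2.32% (1.24 to 3.94). The measure of neighbours was added after the values were seen.

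Diestrus-only loops were longer than the loops that estrus also listed, with a median of 390 kb (360 to 420) against 270 kb (260 to 280) outside chromosome 7. The share absent from estrus was 2.00% for loops up to 100 kb, 4.62% at 100 to 200 kb, 6.52% at 200 to 400 kb, 10.2% at 400 to 800 kb (262 of 2575, 9.03 to 11.4) and 7.33% at 800 kb to 2 Mb. Estrus loops absent from diestrus showed no peak at 400 to 800 kb, where their share was 5.35% (4.48 to 6.33). On chromosome 7 the diestrus share was 13.2% up to 100 kb and 22.3% at 400 to 800 kb.

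**Figure D3:**
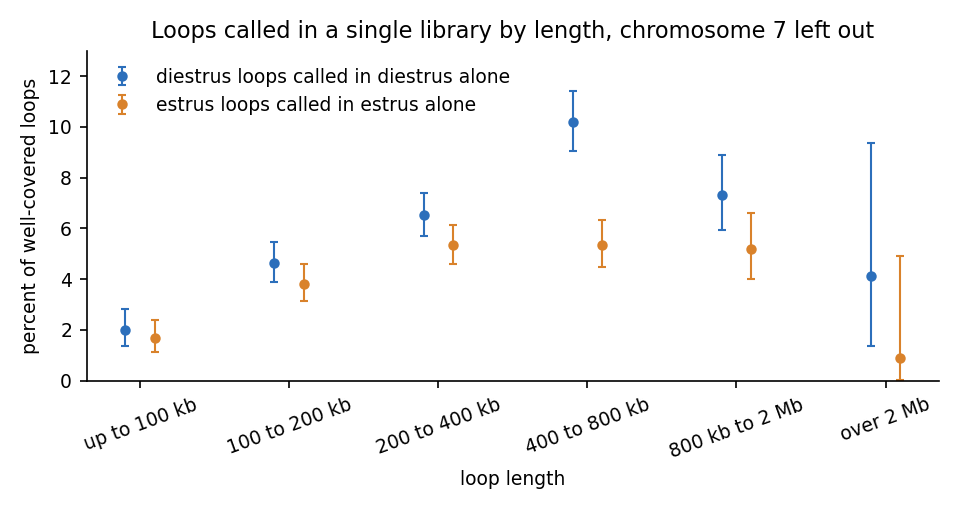
Percent of well-covered loops called in a single library (vertical axis) by loop length (horizontal axis) outside chromosome 7, blue for diestrus and orange for estrus, with bars for 95% intervals. At 400 to 800 kb the diestrus share is 10.2% and the estrus share 5.35%.

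Loops with fewer contacts were longer in general, and the difference in length was not seen among loops of like contacts. With 100 or more contacts the median length was 210 kb both for the 253 diestrus-only loops and for the loops with a counterpart, and with 50 to 99 contacts it was 480 kb (450 to 510) and 520 kb (500 to 540). The gap between stages at 400 to 800 kb was seen within these classes too. The share was 18.7% (16.5 to 21.1) in diestrus against 9.52% (7.85 to 11.4) in estrus at 50 to 99 contacts, and 3.36% (2.49 to 4.43) against 1.79% (1.14 to 2.68) at 100 or more, where the intervals overlap. Contacts at identical positions were also lower in estrus at this length, with a median log2 ratio of -0.12 beside -0.01 up to 100 kb. The part of that in the gap was not tested.

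Outside chromosome 7 most of the missing loops had both anchors in the estrus list, while 280 (37.8%) lacked at least 1. For 460 of the 740 (62.2%, 58.6 to 65.7) both anchors lay within 20 kb of an anchor of some estrus loop, for 252 (34.1%) 1 anchor did, and for 28 (3.78%, 2.53 to 5.42) neither did. At 350 loops (47.3%) both anchors sat in the identical 10 kb bins as estrus anchors that were joined to other partners. An estrus loop with an identical left or right anchor existed for 661 (89.3%). So the usual pattern outside chromosome 7 was an anchor pair that estrus did not list between anchors that it did.

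On chromosome 7 the order was different. Both anchors were in the estrus list for 36 of 127 loops (28.3%, 20.7 to 37.0), 1 for 68 (53.5%) and neither for 23 (18.1%, 11.8 to 25.9). Among loops of strength 5 or more, at least 1 anchor was missing from estrus for 32 of 37 on chromosome 7 and for 16 of 38 elsewhere.

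**Figure D4:**
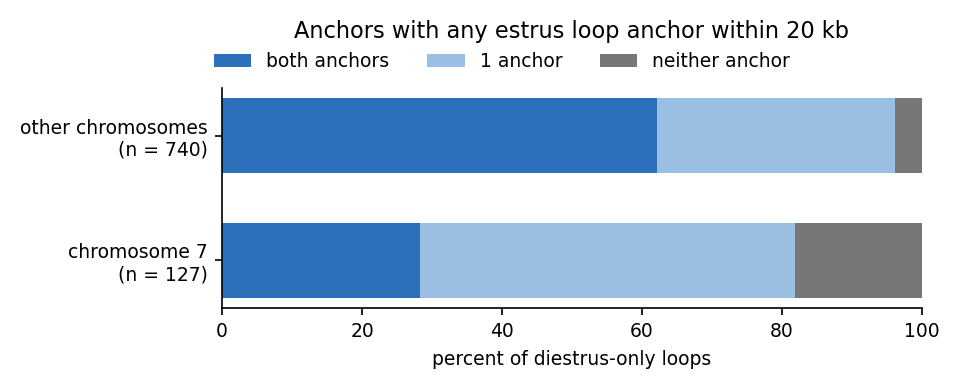
Share of diestrus-only loops (horizontal axis, percent) with both, 1 or neither anchor within 20 kb of any estrus loop anchor, for chromosome 7 and for all other chromosomes. Both anchors are found for 62.2% outside chromosome 7 and for 28.3% on it.

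Counted by anchor, 292 of 14072 anchor bins of well-covered diestrus loops outside chromosome 7 (2.08%, 1.85 to 2.32) had no estrus anchor within 20 kb, with chromosomes from 0.943% on chromosome 4 to 3.28% on chromosome 15. On chromosome 7 it was 87 of 904 (9.62%, 7.78 to 11.7). In the other direction 1.25% of estrus anchor bins outside chromosome 7 and 1.01% on it (8 of 795) were missing from diestrus.

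Most missing anchors outside chromosome 7 stood alone between estrus anchors, 226 of the 292 bins, and the other 66 lay in 31 stretches of 2 or more, 3 of them with 3 or more. On chromosome 7, 33 of the 87 missing bins stood alone and 54 lay in 21 stretches of 2 or more, 8 of them with 3 or more. Missing bins were also a larger share of all bins there, and the part of that in the stretches was not tested. The fullest stretch elsewhere lay at chr19:9110001-9440000, around Asrgl1, an asparaginase found in endometrium, where 4 missing bins carried 4 diestrus-only loops and estrus had no anchor for 760 kb. Another, of 3 bins at chr9:26800001-27080000, held the ends of Acad8, Glb1l2 and Thyn1, with up to 135 contacts. At chr14:37120001-37140000 both diestrus loops of Ghitm, a mitochondrial inner membrane protein chosen after its values were seen, were absent. They held 69 and 58 contacts. Estrus had no anchor for 2500 kb around them, but the missing diestrus bins in that gap ended at chr14:37140000.

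At Asrgl1 the loop from the 3' end of the gene, chr19:9110001-9120000, to Lrrn4cl, chr19:8850001-8860000, held 349 contacts (313 to 388) at 9.11 times the expectation. It was built from 13 pixels, the most of any diestrus-only loop outside chromosome 7. The nearest estrus loop, 30 kb away, held 144 contacts at 2.94 times. A second loop from that end held 62 contacts, and the promoter printed above, in chr19:9130001-9140000, reached 700 kb to the other side with 67 contacts at 6.35 times. None of the 4 diestrus loops at Asrgl1 was listed in estrus. A further loop beside the gene, chr19:9160001-9170000 to chr19:9430001-9440000, held 129 contacts at 10.8 times the expectation, and no protein-coding gene lies in its anchors.

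Some diestrus-only loops shared anchors with each other. Sharing among all well-covered loops was not counted, so these counts do not show that absent loops cluster more than others. Chained within 20 kb, their anchors outside chromosome 7 formed 1350 groups. Of these, 113 held 2 or more loops and 14 held 3 or more, with at most 4. In all 220 of 740 loops met another at an anchor. The shared anchor was the left one in 46 groups, the right one in 39 and both in 28. Estrus had an anchor within 20 kb of 95 of the 113 groups, and 4 of the 14 largest held an end of a protein-coding gene. On chromosome 7, 48 of 194 groups held 2 or more, and 89 of 127 loops were in them. Of those 48 groups 25 had no estrus anchor. A larger share of well-covered loops was absent on chromosome 7, 17.0% against 6.31%. The part of that density in the sharing was not tested.

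Spans overlapped as well. Leaving out the 5 loops over 2 Mb, the diestrus-only loops outside chromosome 7 whose spans overlapped by at least 50% of the shorter formed 99 clusters of 2 or more, holding 245 loops, with 7 in the largest. The other 490 loops stood alone. Of the clusters, 13 held 4 or more. The largest spanned chr1:44220001-45770000 over Gulp1, Col3a1 and Col5a2. The next, each with 6 loops, were over Osr2 to Rgs22 on chromosome 15, a stretch of chromosome 16 without a protein-coding gene, and the surroundings of Zfp608 on chromosome 18. In that order the 4 spans held 34, 12, 18 and 21 well-covered diestrus loops in all. Their well-covered estrus loops numbered 25, 4, 8 and 11, of which 2, 1, 0 and 0 were in estrus alone. These spans were thus not empty in estrus.

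Tshz2, a teashirt zinc finger transcription factor, had one of the 3 groups of 4 loops, the most that met at an anchor outside chromosome 7. Its 3' end, chr2:170070001-170080000, was the right anchor of 4 diestrus-only loops. They held 336 contacts at 150 kb, 138 at 260 kb, 80 at 570 kb and 60 at 780 kb, all inside or upstream of the gene. The same anchor made loops of 390 and 440 kb that were found in estrus, where they held 68 and 146 contacts against 95 and 204 in diestrus. The loop with the most contacts at this anchor, at 150 kb, was among those absent.

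The anchor at chr1:45670001-45680000 lies between Col5a2, a fibrillar collagen chain 167 kb away, and Wdr75, 115 kb away. It carried 12 diestrus loops reaching up to 1450 kb across Col5a2 and Col3a1, and 5 estrus loops. The 4 diestrus-only loops held 136, 102, 85 and 52 contacts. All 5 loops that estrus kept held fewer contacts there. The largest went from 821 (766 to 879) in diestrus to 398 (360 to 439) in estrus, with strength 6.81 and 4.54, and the one at 930 kb from 195 to 127. So at this anchor loops were missing and the remaining ones were lower in the estrus library.

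In the gene desert beside Zeb2, a zinc finger repressor of epithelial genes, the anchor at chr2:46440001-46450000 lies 1323 kb from the gene. Its 21 diestrus loops all but 1 ran to the left, and 11 were found in estrus, which listed 15 loops there. One of these, at 1420 kb with 64 contacts at 3.399 times, was well-covered and had no diestrus counterpart. The 4 diestrus-only loops fell in a narrow band of 700 to 860 kb with 93 to 129 contacts, between loops of 670 and 930 kb that estrus kept with 86 and 80 contacts against 116 and 133. One kept loop, at 1520 kb, held more in estrus, 103 against 83. The strongest loop of the anchor, at 1330 kb, was kept, with 253 contacts in estrus and 324 in diestrus.

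A different pattern stood at chr1:11990001-12000000, 686 kb from Prex2 and 692 kb from Sulf1, which encodes a heparan sulfate sulfatase. It carried 7 diestrus loops, 3 of them diestrus-only loops with 116, 91 and 79 contacts, and no estrus loop. The nearest estrus anchor was 120 kb away. The other 4 diestrus loops there fell under the limit of strength, at 2.50 to 2.71 times the expected contacts.

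**Figure D5:**
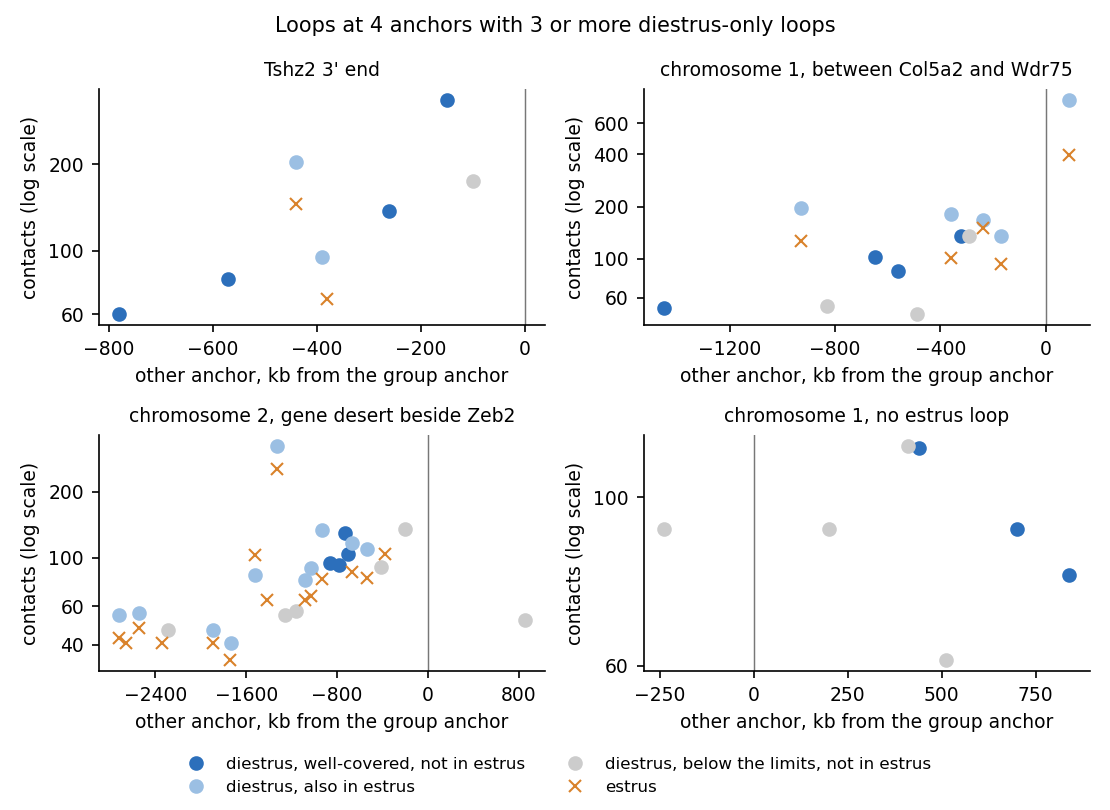
Contacts (vertical axis, log scale) of each loop at 4 anchors against the position of its other anchor in kb (horizontal axis, the shared anchor at 0). Dark blue points are diestrus-only loops, light blue ones diestrus loops also in estrus, grey ones diestrus loops under the limits that estrus lacks, and orange crosses estrus loops. At the Col5a2 anchor every estrus cross lies under its light blue partner, and the last panel has no cross.

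On chromosome 15 an arc of 6 diestrus-only loops spanned chr15:35300001-36150000, from Osr2, an odd-skipped transcription factor of mesenchyme, over Vps13b and Cox6c to Rgs22. The Osr2 loop of 780 kb held 85 contacts. At the Rgs22 end 3 loops met, with 320, 119 and 100 contacts, and the one with 320 had its nearest estrus loop 150 kb away. The same end also had a well-covered loop in estrus alone, of 820 kb with 148 contacts at 4.73 times. Of 10 diestrus loops at the ends of Osr2, estrus listed 9.

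The 6 diestrus-only loops at chr16:77120001-78200000 form a cluster whose joint span holds the genes of the first 3 microRNAs printed above. Not every loop encloses them, and the one at chr16:77160001-77450000 ends before them. The anchor at chr16:77590001-77600000 holds miR-99a and let-7c-1, and its loop of 460 kb had 135 contacts at 3.04 times the expectation. The anchor at chr16:77640001-77650000 holds miR-125b-2, with 221 contacts (193 to 252) at 3.11 times over 510 kb. MicroRNAs of the let-7 and miR-125 families are known from differentiating cells. Estrus listed loops 100 and 50 kb from these. The miR-125b-2 loop ends at chr16:78150001-78160000, where estrus had 9 of 14 diestrus loops. One of them, at 560 kb, held 378 contacts in diestrus and 218 in estrus, and another, at 1030 kb, held 274 and 309.

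At 3 further shared anchors some partners were kept and others were missing. At chr13:25930001-25950000, in a desert 660 kb from Nrsn1, 3 diestrus-only loops of 260 to 690 kb held 168, 133 and 82 contacts, while 5 loops of 2010 to 3900 kb were found in estrus. At chr15:67540001-67550000, 363 kb from St3gal1, a sialyltransferase gene, 3 loops of 170 to 660 kb held 192, 95 and 81 contacts, and the single estrus loop there held 114 against 240 in diestrus. At chr8:102970001-102990000, 185 kb from Cdh11, the cadherin of mesenchymal cells, 3 loops held 97, 96 and 67 contacts, and the kept loop of 190 kb held 234 in diestrus and 110 in estrus. The kept loops were not lower everywhere. At chr12:52910001-52920000, inside Akap6, the 3 kept loops held 74, 148 and 81 contacts in diestrus and 69, 151 and 99 in estrus, beside diestrus-only loops of 85, 58 and 54.

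The kept loops at these anchors were compared over pairs at identical positions that were well-covered in diestrus. The limits of contacts and strength thus acted on the diestrus values of every pair, at these anchors and elsewhere, and not on the estrus values. At anchors of diestrus-only loops outside chromosome 7, the median log2 ratio of contacts, estrus over diestrus, was -0.15 (-0.18 to -0.13) over 1332 pairs, against -0.07 (-0.08 to -0.07) over 8417 pairs at no such anchor. At anchor groups of 2 or more it was -0.26 (-0.32 to -0.19, 232 pairs), with 187 of the 232 lower in estrus, and at groups of 3 or more -0.36 (-0.61 to -0.14, 38 pairs). The donut expectation moved too, by -0.14, -0.23 and -0.19. The ratio of strength was -0.01 (-0.03 to 0.00), -0.04 and -0.17 (-0.31 to 0.02), so the loop stood over its surroundings nearly as before except, within a wide interval, at the largest groups.

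The difference was also seen within some classes of length. At 200 to 400 kb the medians were -0.20 (-0.24 to -0.17) at these anchors and -0.09 (-0.10 to -0.08) elsewhere, and at 400 to 800 kb -0.21 and -0.11. At 800 kb to 2 Mb they were alike, -0.13 and -0.14. At anchors of estrus loops absent from diestrus, the median was -0.08 over 897 pairs. These pairs too had to be well-covered in diestrus, so the rule was not turned round for them. On chromosome 7 the median was -0.14 (-0.19 to -0.08) at anchors of diestrus-only loops and -0.05 (-0.08 to -0.04) elsewhere. These pairs share an anchor, and so part of their reads' source, with the loops that the rule picked.

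Genes were placed by the ends of RefSeq genes inside the 10 kb anchors. Outside chromosome 7, 382 protein-coding genes had an end in an anchor of a diestrus-only loop, and 194 had a listed start site there. With the 76 genes of chromosome 7, 458 of 4599 genes that carry any well-covered loop (9.96%) did so. Of the 382 genes, 269 had at least 1 other diestrus loop at their ends that was found in estrus within 20 kb, and 113 had none. Since each gene entered through an absent loop, nothing is read from these counts. Of the 740 loops, 458 (61.9%) had no gene end in either anchor and 61 (8.24%) one in both, against 56.3% and 7.55% of loops with a counterpart. No test of these differences was run.

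Of 364 symbols on 16 lists of uterine, hormone, signalling and cell type genes, 347 matched a gene off chromosome X, 153 carried a well-covered loop and 18 of these (11.8%, 7.12 to 17.96) a diestrus-only one, beside 9.96% over all genes. The lists were drawn up with earlier results of these data known, and each is too short to set it apart. None of 11 steroid receptor and coregulator genes with a well-covered loop had a diestrus-only loop, which allows up to 28.5%, and none of 15 extracellular matrix, 7 stromal, 5 hypoxia, 3 endothelial and 2 immune genes, nor the 1 ubiquitously expressed gene, did. This holds for gene ends inside the anchor. With ends within 5 kb of it 1 steroid receptor or coregulator gene, 1 extracellular matrix gene and 1 stromal gene counted, and with any base of the gene 2, 3 and 0.

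Patterning genes of the Muellerian duct, the embryonic source of the uterus, gave 4 of 22. Tbx18, a transcription factor of mesenchyme around ducts, had a loop of 490 kb with 147 contacts (124 to 173), and estrus listed one 30 kb away. Tcf21, a mesenchymal helix-loop-helix factor, was joined to the ribosomal protein gene Rps12 over 970 kb with 71 contacts. Hoxd9, a homeobox gene, reached 790 kb with 57 contacts, and Osr2 is given above. By the same 20 kb rule, estrus had 4 of 7 diestrus loops at the ends of Tbx18, 3 of 5 at Tcf21 and 5 of 6 at Hoxd9.

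Genes that respond to progesterone or act at implantation gave 3 of 17. Bmp2, a signal that stroma needs to become decidua, had a loop of 440 kb with 96 contacts (77.8 to 117), with an estrus loop 40 kb away. Dio2, the deiodinase that activates thyroid hormone, had one of 170 kb with 124 contacts, and estrus had none nearer than 170 kb. Fst, the activin-binding protein follistatin, had one of 340 kb with 134 contacts, with an estrus loop 40 kb away. Of the diestrus loops at the ends of these genes, 7 of 9 at Bmp2, 3 of 5 at Dio2 and 2 of 3 at Fst were found in estrus within 20 kb. Of 13 estrogen-responsive genes with a well-covered loop the single one was Aqp8, a water channel on chromosome 7, with 55 contacts.

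Guidance and adhesion receptor genes gave 3 of 18, and they had the longest loops among the list genes. Epha7, an ephrin receptor, was joined over 3120 kb to chr4:31930001-31940000 with 60 contacts (45.8 to 77.2) at 5.04 times the expectation. Flrt2, a leucine-rich adhesion protein, had loops of 2540 kb with 58 contacts at 4.88 times and of 1110 kb with 65 contacts. Epha4 had loops of 1480 and 1140 kb with 79 and 68 contacts. The printed promoters of Flrt2 and Epha4 lie at these anchors. Estrus had 3 of 5 diestrus loops at Epha7, 7 of 13 at Flrt2 and 4 of 9 at Epha4.

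The remaining list genes were spread thinly. Cald1, encoding the actin-binding caldesmon of smooth muscle, and Synpo2, an actin-bundling protein of muscle, were 2 of 12 smooth muscle genes, with 219 and 51 contacts. Neither of the 2 diestrus loops at Cald1 was found in estrus, and 2 of 3 were at Synpo2, which had 4 estrus loops. Krt7, a keratin of simple epithelia, was 1 of 4 epithelial genes, in a loop of 80 kb to Krt80 with 217 contacts (189 to 248). Estrus listed a loop 40 kb from it. Other nuclear receptors gave 2 of 10. The retinoic acid receptor gene Rarb had 99 contacts over 520 kb, with an estrus loop 60 kb away. The fatty acid receptor gene Ppard had 51 over 220 kb, with an estrus loop 120 kb away. Tcf7l2, a transcription factor at the end of the Wnt pathway, was 1 of 18 signalling genes with 125 contacts. Of its 4 diestrus loops 2 were found in estrus, which listed 6 loops there. Pds5b, a cohesin regulator, was 1 of 3 loop machinery genes with 65 contacts.

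Outside chromosome 7, 19 genes had 2 or more diestrus-only loops, and those named in this paragraph were chosen after their values were seen. Irs1, the adaptor of the insulin and IGF receptors, had loops of 620 and 450 kb with 114 and 86 contacts, and 5 of its 7 diestrus loops were found in estrus. Igfbp3, an IGF-binding protein, had loops of 520 and 760 kb with 73 and 97 contacts, and 6 of 8 were found. Fat4, a giant cadherin, had loops of 410 and 500 kb with 59 and 76 contacts, and 8 of 11 were found. Dmrta1 differed, since estrus listed none of its 3 loops. The diestrus-only loop of 120 kb held 267 contacts (236 to 301) at 7.27 times the expectation, and the one of 550 kb held 51.

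The strongest diestrus-only loops outside chromosome 7 were of mixed kinds. The first joined chr3:25320001-25330000 to chr3:151900001-151910000 over 126580 kb with 69 contacts (53.7 to 87.3), which is 965 times the donut expectation, and no protein-coding gene lies in its anchors. The same loop was 59.6 times over the highest of the 4 expectations. The second was a loop of 170 kb between the vomeronasal receptor genes Vmn2r25 and Vmn2r26, with 61 contacts at 12.4 times. The fifth, after the loop beside Asrgl1 and one on chromosome 11, was a loop of 280 kb from Tcstv1 with 70 contacts at 9.11 times. The second, the fifth and the loop beside Asrgl1 had neither anchor in the estrus list. The second and the fifth lie in gene families, and whether reads are shared between copies there was not tested. The one on chromosome 11, of 200 kb from chr11:103350001-103360000 inside Arhgap27, held 231 contacts at 10.8 times. Ccdc85a was reached over 830 kb with 60 contacts at 8.66 times, and Abt1 over 170 kb with 167 contacts at 8.39 times.

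Chromosome 7 had absent loops along most of its length, in 28 of 29 windows of 5 Mb. The share was highest in the first 15 Mb, 16 of 28 well-covered loops (57.1%, 37.2 to 75.5), and at 50 to 65 Mb, 14 of 31 (45.2%, 27.3 to 64.0). In the rest it was 97 of 686 (14.1%, 11.6 to 17.0), above the share of every other chromosome, though its interval overlaps that of chromosome 15. The windows grouped here were chosen after their values were seen.

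Near the start of the chromosome, the anchor at chr7:3220001-3230000 holds the miR-293, miR-294 and miR-295 genes, which belong to a cluster known from embryonic stem cells. Its diestrus-only loops of 220 and 150 kb held 387 (349 to 428) and 162 contacts, at 8.88 and 4.16 times the expectation. The nearest estrus anchor was 110 kb away.

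Farther in, 8 diestrus-only loops overlapped at chr7:6280001-7300000, a span with 24 protein-coding genes. It held 13 well-covered diestrus loops in all and 5 well-covered estrus loops. Many of its genes are zinc finger (Zfp) and olfactory receptor (Olfr) genes. The imprinted genes Zim1, Peg3 and Usp29 and the chloride transporter gene Clcn4 lie there too. The anchor inside Clcn4, chr7:7290001-7300000, carried 5 diestrus loops of 170 to 1010 kb with 151, 72, 61, 56 and 51 contacts, and every one was absent from estrus. Beyond chr7:6910001 estrus had no anchor for 5560 kb. The missing anchor bins of well-covered diestrus loops in that gap ended at chr7:7300000, and the rest of the gap held none. On the near side of that gap, the group at chr7:6910001-6950000 kept 4 loops in estrus, among them one of 250 kb with 184 contacts in diestrus and 178 in estrus and one of 480 kb with 103 and 151.

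The 3 strongest diestrus-only loops of chromosome 7 were 2870 to 3680 kb long. They held 61, 107 and 86 contacts at 49.2, 41.4 and 14.8 times the expectation. The fourth, of 870 kb, had an anchor inside Luzp2 and held 319 contacts at 13.6 times. Next, Tm2d3 and Pcsk6, a proprotein convertase gene, were joined over 350 kb at chr7:65700001-65710000 and chr7:66050001-66060000 with 463 contacts (422 to 507) at 11.6 times the expectation. Neither gene had an estrus loop at its ends, where diestrus had 2 and 4, and the nearest estrus loop lay 400 kb away. Around chr7:82110001-82130000, loops to Bnc1, the basonuclin gene, and into Sh3gl3 held 315 and 613 contacts at 9.99 and 11.6 times. No estrus anchor lay nearer than 140 kb to this group.

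Klf13, a Krueppel-like transcription factor gene, had its printed promoter in an anchor of 2 diestrus-only loops. The one of 80 kb held 532 contacts (488 to 579) and the one of 180 kb held 263. A further 2 loops from their far anchors held 187 and 154, the last reaching Trpm1. Of 3 diestrus loops at Klf13, 1 was found in estrus. At Dhcr7, the last enzyme of cholesterol synthesis, and its neighbour Nadsyn1, both diestrus loops were absent from estrus. Dhcr7 and Tshz3 were picked once their values were known. The Dhcr7 loop to Acte1 over 80 kb held 284 contacts and its loop over 250 kb held 79. At chr7:92090001-92110000 inside Dlg2, which encodes a synaptic scaffold, 4 loops of 220 to 760 kb held 257, 255, 155 and 67 contacts at 6.58 to 9.69 times, and estrus had none of the 6 diestrus loops there.

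Not every part of chromosome 7 was alike. At chr7:37340001-37380000, inside Zfp536, 11 of 16 diestrus loops were found in estrus, the strongest with 402 contacts in diestrus and 365 in estrus. The 4 diestrus-only loops there held 54 to 79 contacts, and 1 loop of 370 kb with 83 contacts was well-covered in estrus alone. Tshz3, a relative of Tshz2, had 2 diestrus-only loops of 540 and 710 kb with 119 and 115 contacts, and 7 of its 9 diestrus loops were found in estrus. Of the 76 genes with a diestrus-only loop on chromosome 7, 34 had no diestrus loop that was found in estrus.

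The upstream windows in the anchors showed few motif matches. The CTCF core (CCA, any 2 bases, AGG, any 1 base, GGC), searched on both strands, was found in 4 of 367 windows at diestrus-only loops outside chromosome 7 (1.09%, 0.298 to 2.77) and in 0 of 73 on it. It was found in 1.55% of windows in any diestrus anchor and in 0.828% of all 31396 windows of this length. The estrogen response element (GGTCA, any 3 bases, TGACC) and the progesterone response element (G, any 1 base, ACA, any 3 bases, TGT, any 1 base, C) matched 0 of 367 and 0 of 73 windows, and 0.0669% and 0.398% of all windows. A window of 250 bases is a small part of an anchor, and no match says only that these letters are not in it. The windows had a median GC content of 55.6% (54.0 to 57.2) outside chromosome 7 and 57.2% on it, beside 56.0% at anchors of loops with a counterpart and 52.4% over all windows.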

How the data were processed

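Hi-C loop lists of 1 diestrus and 1 estrus library (n = 1 each) were analysed. Per the submitters' processing notes, Juicer and the mm10 assembly were used. Further tools, their versions and settings are not stated there. Per the file headers, each deposited loop gives its anchors, its observed contact count, 4 expected contacts and a q-value for each. The deposited expected values are a local signal of the contact map, which the authors computed for the donut, bottom-left, horizontal and vertical neighbourhoods. The largest deposited q-value was 0.0955 in diestrus and 0.0991 in estrus.

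From these lists strength was computed as the count over the donut expectation. A counterpart was a loop of the other list with both anchor starts within 20 kb. RefSeq gene ends (GRCm38.p6) were placed in the 10 kb anchors, and motifs were searched in 250 bases upstream of start sites. The members and gene lists were chosen with earlier results of these data known. Named genes were those at the 12 strongest diestrus-only loops and the 12 with the most contacts outside chromosome 7. Genes at anchor groups of 3 or more and on the lists were also named. On chromosome 7 they were those at the 6 strongest diestrus-only loops and 5 largest groups. Others are said to be chosen after their values were seen. On simulated lists, kept loops were shifted by up to 2 bins of 10 kb, within the 20 kb allowed. That 100% of 9310 kept loops were found again was therefore fixed in advance and checks only the code. Of 3154 removed loops, 95.1% were found missing. The alternatives were other distances, limits and gene rules. Chromosome X was left out of the members. Python 3.11.15, numpy 2.4.6, pandas 2.3.3, scipy 1.17.1 and matplotlib 3.10.9 were used.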

Additional observations from a re-analysis of the deposited data

How the results depend on the processing

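The share of well-covered diestrus loops absent from estrus was higher on chromosome 7 than elsewhere under every alternative run. With a counterpart within 10 kb, 8.08% were absent outside chromosome 7 and the median length was 350 kb. Within 50 kb, 448 loops (3.82%) were absent there, 6.25% of them with no anchor in estrus and 123 of them in anchor groups, and 13.8% were absent on chromosome 7. At strength 4 or more there were 144 loops outside chromosome 7 (2.01%, median 440 kb, 16 in groups) and 60 on it (12.9%). With the lowest of the 4 strengths at least 3 there were 93 (1.45%, 440 kb, 13.98% with no anchor in estrus, 11 in groups) and 57 (13.4%). With at least 100 contacts there were 253 (2.95%, 210 kb, 39 in groups) and 70 (12.7%). With all q-values at or below 0.001, 5.49% were absent outside chromosome 7. Without loops within 50 kb of a diestrus loop with more contacts, an alternative chosen after seeing the data, 4.90% were absent and 127 loops were in groups. Placing gene ends within 5 kb of an anchor gave 594 genes, and any base of the gene gave 732, against 382, with 29 and 34 list genes against 18. The causes were not tested. Leaving out loops over 2 Mb was also chosen after seeing the data. No paired analysis was possible because each stage had 1 library. No depth, batch or animal could be set apart from the stage.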

Other observations

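Chromosome X was outside the rule. By the same limits, 30 of 380 well-covered diestrus loops on it (7.89%, 5.39 to 11.1) had no estrus counterpart, and 10 of 352 estrus loops (2.84%, 1.37 to 5.16) had no diestrus counterpart.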
